A study of Mus musculus with 8 samples.

Results

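The 10 genes described here encode enzymes that break down the branched-chain amino acids leucine, isoleucine and valine. They are the transaminases Bcat1 and Bcat2, the branched-chain ketoacid dehydrogenase genes Bckdha, Bckdhb, Dbt and Dld, the dehydrogenase kinase gene Bckdk, and the leucine-specific enzymes Ivd, Mccc1 and Mccc2. They were taken by symbol from a table of 53170 named genes, and all 10 had enough counts to be tested among 14058 genes. The set was chosen by the measured difference of Bcat1 between the 2 groups of libraries, already known to be among the largest gains, together with the known roles of the other 9 genes. The differences of the 10 genes between the groups are therefore given as a description, and no test of them is offered as support.

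The organoids were started from hindstomach epithelium, the future glandular stomach, of embryonic day 18.5 mice and were kept for 5 days in growth medium before their RNA was sequenced. The 4 control libraries carry Shh-Cre alone. The 4 YAP5SA libraries carry Shh-Cre;YAP5SA, that is, the same Cre with the YAP5SA transgene. Shh-Cre, which both groups carry, is a recombinase expressed from the Sonic hedgehog gene, which is active in foregut epithelium, and YAP5SA is a form of the coactivator YAP whose serine-to-alanine changes free it from the Hippo kinases. The strain, the promoter of the transgene and the number of embryos or cultures behind a group are not given in the labels, so the spread that p-values are based on is that between libraries and may be a technical one.

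The last step common to the 3 amino acids, the oxidative decarboxylation of their ketoacids in mitochondria, cannot be reversed, and it commits them to breakdown. The step before it is a reversible transamination, carried out by BCAT1 in the cytosol and by BCAT2 in mitochondria, in which the amino group passes to 2-oxoglutarate and gives glutamate. BCAT2 is found in many tissues, and in the rat the stomach is known for high branched-chain transaminase activity. BCAT1 is known from embryonic tissues, the nervous system and many tumours. The dehydrogenase complex is switched off by the kinase BCKDK, which phosphorylates its decarboxylase, and switched on by the phosphatase PPM1K.

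Total counts per library were between 13672268 and 19710648. The X-inactivation RNA Xist had between 12476 and 13979 counts in the control libraries and between 7 and 50 in the YAP5SA libraries, and the genes Ddx3y, Eif2s3y, Kdm5d and Uty of the Y chromosome had at most 6 counts in a control and between 611 and 1880 in a YAP5SA library. Female libraries were thus all controls and male libraries all YAP5SA, so genotype and sex cannot be told apart in any difference below. All 8 epithelial marker genes were tested, and CPM below are counts scaled to 1000000 per normalised library. Their summed level was 7789 to 8364 CPM in controls and 6506 to 6731 CPM in YAP5SA. Of the 8 epithelial markers, 4 fell and 2 rose (75% called, against 49.1% of all tested genes). Among those that rose was Cldn3, from 3.58 to 67.2 CPM. The 10 mesenchymal markers summed to 2.78 to 5.68 CPM in controls and 1.16 to 2.59 CPM in YAP5SA, with Lum at 0 throughout, and the 6 neural markers to 0.884 to 2.82 and 1.16 to 1.83 CPM, with Sox10 at 0. The 5 endothelial markers summed to 6.50 to 13.7 CPM in controls, nearly all of it Tek, and to 0.0644 to 0.842 CPM in YAP5SA, and the 6 immune markers to 19.1 to 38.4 and 9.42 to 10.4 CPM, most of it Cd68. Csf1r rose from 0.191 to 1.49 CPM on average, and Ptprc was at 0.514 ± 0.179 and 0.390 ± 0.111 CPM (SD, n = 4). Their part in the differences below was not tested. In bulk RNA, fewer cells that express a gene and less RNA per cell cannot be told apart.

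The promoter windows of the 3 members that were higher in YAP5SA are shown because they hold annotated starts of these RNAs, although which start is used was not measured. Each runs from 250 bases before to 50 bases after an annotated start (RefSeq, build GRCm38.p6), 5′ to 3′ on the gene's strand. The windows are 2 starts of Bcat1, at chr6:145076108-145076407 and, inside the gene, at chr6:145048763-145049062 (both minus strand), the first of 2 starts of Bcat2 at chr7:45569903-45570202 (plus strand) and the start of Ivd at chr2:118861744-118862043 (plus strand). Capitals mark a match to the AP-1 motif TGANTCA.
Bcat1, outer start: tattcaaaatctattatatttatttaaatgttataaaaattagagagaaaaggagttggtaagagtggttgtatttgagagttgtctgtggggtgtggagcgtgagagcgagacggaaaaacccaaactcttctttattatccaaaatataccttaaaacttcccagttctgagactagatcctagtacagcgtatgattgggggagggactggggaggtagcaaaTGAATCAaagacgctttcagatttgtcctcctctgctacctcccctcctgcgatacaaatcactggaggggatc
Bcat1, inner start: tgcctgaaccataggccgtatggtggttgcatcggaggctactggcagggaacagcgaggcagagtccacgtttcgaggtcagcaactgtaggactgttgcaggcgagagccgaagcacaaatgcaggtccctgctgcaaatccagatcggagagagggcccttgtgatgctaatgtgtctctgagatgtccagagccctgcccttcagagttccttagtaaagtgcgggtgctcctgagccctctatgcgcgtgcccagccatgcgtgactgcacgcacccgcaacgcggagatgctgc
Bcat2: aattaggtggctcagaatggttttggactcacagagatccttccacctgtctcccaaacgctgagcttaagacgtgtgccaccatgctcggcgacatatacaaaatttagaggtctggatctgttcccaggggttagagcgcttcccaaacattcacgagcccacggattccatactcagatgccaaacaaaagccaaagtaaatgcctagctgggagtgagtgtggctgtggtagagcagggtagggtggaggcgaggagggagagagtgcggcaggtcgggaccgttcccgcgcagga
Ivd: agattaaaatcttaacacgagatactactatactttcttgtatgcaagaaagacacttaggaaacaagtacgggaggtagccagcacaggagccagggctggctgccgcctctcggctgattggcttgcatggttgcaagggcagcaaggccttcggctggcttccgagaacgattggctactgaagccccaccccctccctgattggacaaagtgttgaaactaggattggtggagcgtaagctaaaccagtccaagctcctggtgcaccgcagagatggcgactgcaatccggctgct
The motifs, 3 in number and chosen after the values were seen, were searched on both strands in the 12 windows of the 9 members that have one (Dbt has none in the table). They do not overlap each other in these windows. The TEAD motif GGAATG, the element bound by the DNA-binding partners of YAP, was in 0 of the 12 windows and in 14.7% of all 32851 windows of 300 bases. The AP-1 motif was in 1 window, the outer start of Bcat1, where it begins 24 bases before the start, and in 7.81% of all windows. The E-box CACGTG was in 1 window, that of Mccc2, and in 7.15% of all windows. A match or its absence describes these letters in these windows and no more.

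Bcat1, the cytosolic transaminase gene, was almost unread in control organoids and among the well-read genes in YAP5SA organoids. It had 4, 7, 8 and 2 counts in controls 1 to 4 and 2577, 2911, 2568 and 2524 counts in YAP5SA 1 to 4. In CPM these are 0.253, 0.379, 0.407 and 0.150 against 166.8, 160.7, 165.3 and 148.6. The groups did not overlap, and the lowest YAP5SA library was over 300 times the highest control. The ratio of the pooled levels was 513, with a 95% interval of 335 to 829 that covers counting error only and is set by the 21 control counts. The fitted log2 fold change was 8.97, and it was between 8.80 and 9.15 when any 1 library was left out. Its SE from the test, 0.12, gives a narrower interval than the counting error of the pooled ratio. That SE therefore understates the uncertainty of so large a change. Only 6 of the 14058 tested genes had a higher fitted change, 4 of them the Y-linked genes named above. These are the values for which the gene was chosen. The annotated antisense gene inside Bcat1, Gm26666, had 0 counts in all 8 libraries.

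Bcat2, the mitochondrial transaminase gene, was read in every library of both groups. Its levels were 43.8, 41.1, 41.8 and 39.7 CPM in controls 1 to 4 and 55.6, 62.5, 58.4 and 55.5 CPM in YAP5SA 1 to 4. All YAP5SA libraries were above all controls, by 1.39-fold in the fit (log2 fold change 0.48 ± 0.06 SE). An antisense gene, 0610005C13Rik, covers 15.9% of the Bcat2 exons in GENCODE M21 and had at most 3 counts in a library. How strand was handled is not named, so reads there may be missing from the Bcat2 counts.

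With both changes, the make-up of the transaminase RNA turned over. Bcat1 gave between 0.377% and 0.964% of the Bcat1 and Bcat2 counts in controls and between 72% and 75.0% in YAP5SA, where the exact 95% binomial (Clopper-Pearson) intervals of single libraries lay between 70.6% and 76.4%. Bcat1 has the longer annotated transcripts, so its share of reads overstates its share of RNA molecules. Per length of merged exons the share was 53.6% ± 1.7 in YAP5SA, and 42.4% ± 1.6 by the longest transcript, against 0.297% ± 0.118 and 0.189% ± 0.075 in controls (SD, n = 4). The 2 genes together went from 35.4 ± 0.9 to 107.7 ± 4.9 TPM (TPM are counts per length of merged exons, scaled to a sum of 1000000).

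**Figure D1:**
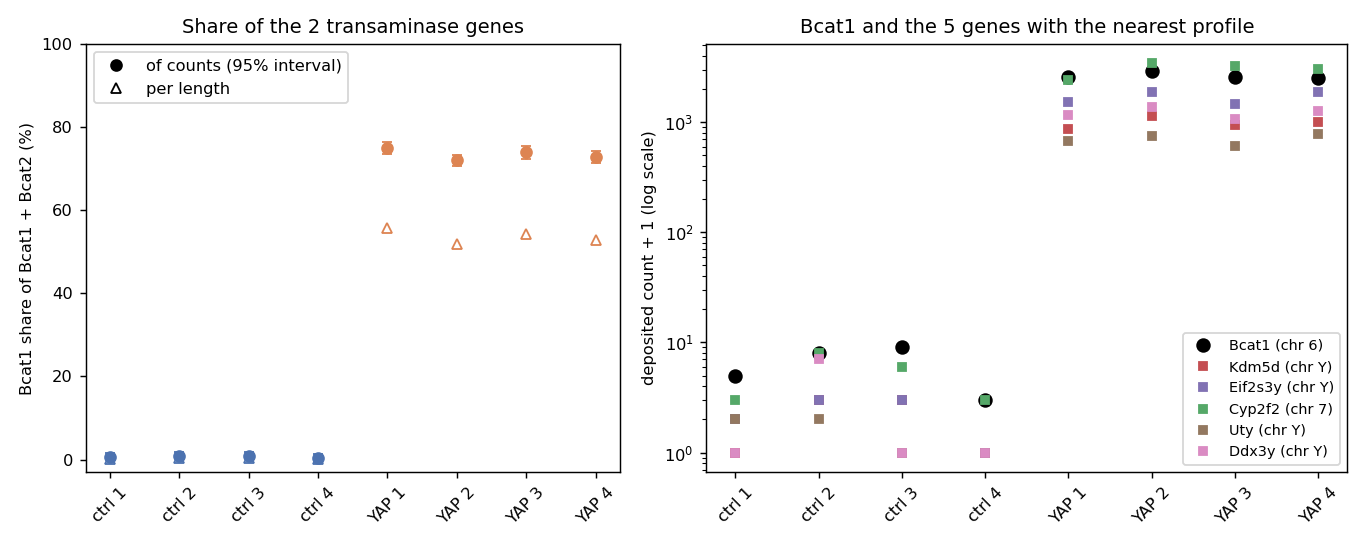
Left, share of Bcat1 in the sum of Bcat1 and Bcat2 in each library (percent; circles, of counts with 95% Clopper-Pearson intervals; triangles, per length of merged exons). Right, deposited count plus 1 (log axis) of Bcat1 and of the 5 genes whose profile is nearest to it; controls (ctrl) lie at 8 counts or fewer and YAP5SA (YAP) libraries at 611 or more for each of the 6 genes.

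The genes whose profile over the 8 libraries was most like that of Bcat1 were Kdm5d, Eif2s3y, Cyp2f2, Uty and Ddx3y, in that order. Likeness was the Euclidean distance between log2 CPM profiles, each centred on its mean, and ran from 0.48 for Kdm5d to 1.48 for Ddx3y. All but Cyp2f2, a cytochrome P450 gene on chromosome 7, lie on the Y chromosome. The distance is set mainly by the size of the step between the groups, for which Bcat1 was chosen, and the same 5 genes are among the 6 with a higher fitted change than Bcat1. Cyp2f2 had 16 counts over the controls and 12024 over the YAP5SA libraries.

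Genes within 500 kb of Bcat1 on chromosome 6 (GENCODE M21) were looked at as well. Among them Etfrf1, a regulator of the electron transfer flavoprotein, rose only 0.33 ± 0.07 on the log2 scale (39.9 ± 4.1 to 50.1 ± 1.9 CPM, adjusted p = 0.00133, edgeR quasi-likelihood, Benjamini-Hochberg), and the transcription factor gene Sox5 fell by 3.04 ± 0.30 (5.63 ± 0.43 to 0.673 ± 0.436 CPM, adjusted p = 1.72e-07, edgeR). Gm15706 and the pseudogene Rps25-ps1 did not pass (0.18 and 0.57). Without control 3 the value of Gm15706 was −0.25, and without control 2 it was 0.99. Among named genes ordered by start coordinate, Gm22792 comes just before Bcat1, and Gm26666 and then Gm15687 come after it. Gm22792 and Gm15687 had at most 2 counts in all. Whether Gm15687 lies beyond the end of Bcat1 was not looked at.

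**Figure D2:**
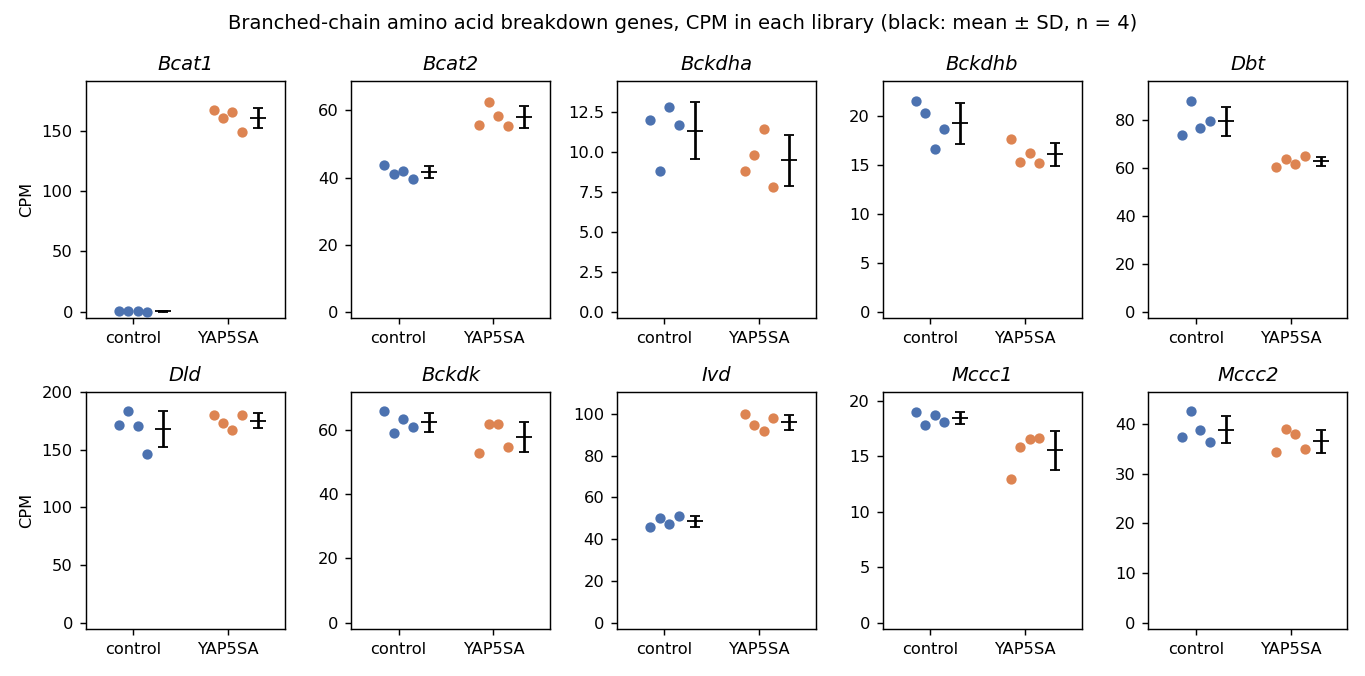
CPM of each of the 10 genes (vertical axes differ between panels) in the 4 control and 4 YAP5SA libraries, in replicate order from left to right; black bars, mean ± SD (n = 4). The groups are apart in Bcat1, Bcat2, Dbt, Ivd and Mccc1 and overlap in the other 5 genes.

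Among all 10 genes, 6 passed the threshold of the fit across all genes (adjusted p under 0.05), 3 higher (Bcat1, Bcat2 and Ivd) and 3 lower (Bckdhb, Dbt and Mccc1), and 4 did not (Bckdha, Dld, Bckdk and Mccc2). Over all tested genes 49.1% passed, 23.6% higher and 25.5% lower. The groups did not overlap in 5 of the 10, against 45.7% of all tested genes; 3 of the 5 were higher, against 21.8%, and 2 lower, against 23.9%. Bcat1 alone passed with at least a 2-fold change, which 13.8% of all tested genes did. The median log2 fold change was −0.10 for the 10 and 0.00 for all tested genes. Nothing is read from these counts, since the contrast was known when the genes were chosen.

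The ketoacid dehydrogenase is built from a decarboxylase with alpha and beta subunits (Bckdha and Bckdhb), a transacylase core that carries lipoic acid (Dbt) and dihydrolipoamide dehydrogenase (Dld), which reoxidises the lipoic acid. Dbt was lower in YAP5SA. It had 73.4, 87.6, 76.4 and 79.4 CPM in controls 1 to 4 and 60.5, 63.5, 61.7 and 64.7 CPM in YAP5SA 1 to 4. The groups did not overlap, and the fitted change was −0.34 ± 0.06 on the log2 scale. Bckdhb ranged from 16.6 to 21.5 CPM in controls and from 15.1 to 17.6 CPM in YAP5SA, so the groups overlapped (log2 fold change −0.26 ± 0.10 SE). The call of Bckdhb was lost without control 1, control 2, YAP5SA 2, YAP5SA 3 or YAP5SA 4, with log2 fold changes between −0.22 and −0.34 over the 8 fits that leave out a library, and also with scaling by library size alone (−0.23) and without a filter on low counts (−0.24).

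Bckdha did not pass. It ranged from 8.77 CPM (control 2) to 12.8 CPM in controls and from 7.77 to 11.5 CPM in YAP5SA, with a log2 fold change of −0.26 and a 95% interval (normal approximation from the SE) from −0.54 to 0.02. Without control 2 it was −0.37 and passed. In GENCODE M21, 61.7% of the Bckdha exon bases are also exon of B3gnt8 on the opposite strand. Reads there could be assigned to either gene or discarded, depending on how strand was handled, so the level of Bckdha is uncertain. B3gnt8 itself had at most 5 counts in a library. Dld did not pass and had the smallest fitted change of the complex, with 146.0 to 183.5 CPM in controls and 167.1 to 180.1 CPM in YAP5SA (log2 fold change 0.06, interval −0.06 to 0.18). The sum of Bckdha, Bckdhb and Dbt was 126.7 to 137.9 TPM in controls and 105.8 to 113.1 TPM in YAP5SA, without overlap. The ratio of Dld to Dbt, in TPM, was 1.67 to 2.12 in controls and 2.46 to 2.71 in YAP5SA.

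Bckdk, the kinase that inactivates the complex, did not pass, with 59.3 to 66.1 CPM in controls and 53.0 to 62.1 CPM in YAP5SA (log2 fold change −0.11, interval −0.24 to 0.02). Ppm1k, the phosphatase that opposes it, is not one of the 10 genes. It rose in YAP5SA from 29.9, 31.8, 30.6 and 33.0 CPM to 42.3, 44.2, 42.7 and 43.5 CPM (log2 0.46 ± 0.07 SE, adjusted p = 1.18e-05, edgeR). The ratio of Bckdk to Ppm1k RNA, in TPM, was therefore 3.02 to 3.61 in controls and 2.04 to 2.37 in YAP5SA, and the groups did not overlap. Against genes of the complex itself, the ratio of Bckdk overlapped between the groups. Bckdk to Dbt was 0.61 to 0.82 in controls and 0.77 to 0.91 in YAP5SA. Bckdk to Bckdha was 2.55 to 3.47 in controls and 2.78 to 3.62 in YAP5SA. RNA ratios do not measure the phosphorylation of the complex.

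**Figure D3:**
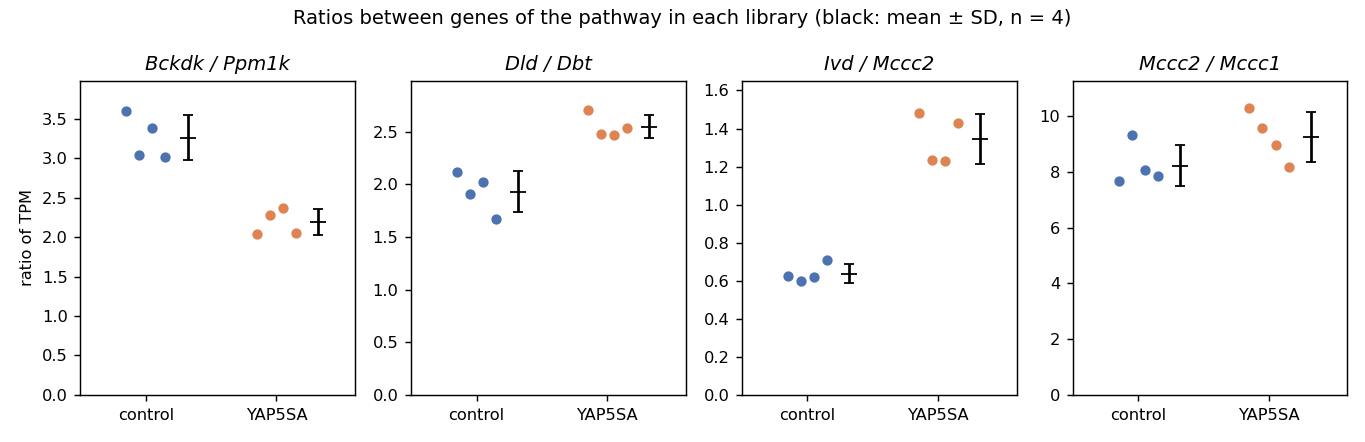
Ratios of TPM between pathway genes in each library (in replicate order; black bars, mean ± SD, n = 4). Bckdk over Ppm1k is lower in all YAP5SA libraries (2.04 to 2.37, against 3.02 to 3.61), Dld over Dbt and Ivd over Mccc2 are higher in all of them, and Mccc2 over Mccc1 overlaps between the groups; the pairs were chosen after the values were seen.

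After the dehydrogenase, leucine carbon passes through isovaleryl-CoA dehydrogenase (Ivd) and then the biotin enzyme 3-methylcrotonyl-CoA carboxylase, whose alpha subunit carrying biotin is Mccc1 and whose beta subunit is Mccc2. Ivd had 45.7, 50.2, 47.1 and 50.9 CPM in controls 1 to 4 and 99.8, 94.5, 91.7 and 97.9 CPM in YAP5SA 1 to 4. Every YAP5SA library was above every control, by 1.98-fold in the fit (log2 fold change 0.99 ± 0.06 SE), the largest change of the 10 genes after Bcat1. It was between 0.95 and 1.01 when any 1 library was left out.

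The next step did not follow Ivd. Mccc1 ranged from 17.9 to 19.0 CPM in controls and from 13 to 16.7 CPM in YAP5SA, lowest in YAP5SA 1 (log2 fold change −0.25 ± 0.10 SE). Without YAP5SA 1 the change was −0.18 and the call was lost, as it was without control 1, control 3 or YAP5SA 2, with scaling by library size alone (−0.22) and without a filter on low counts (−0.23). Mccc2 had 36.5 to 42.6 CPM in controls and 34.2 to 38.9 CPM in YAP5SA, overlapped and did not pass (log2 fold change −0.09, interval −0.23 to 0.06). The ratio of Ivd to Mccc2, in TPM, was 0.60 to 0.71 in controls and 1.23 to 1.48 in YAP5SA, while Mccc2 to Mccc1 was 7.69 to 9.32 and 8.19 to 10.3.

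Compared per length, in TPM, the order of the 10 genes differed between the groups mainly in where Bcat1 and Ivd stood. In controls Dld was highest (150.3 ± 11.4 TPM, SD, n = 4), followed by Dbt (78.2 ± 6.5), Bckdk (56.0 ± 2.3), Mccc2 (45.8 ± 2.9), Bcat2 (35.3 ± 0.9), Bckdhb (35.2 ± 3.7), Ivd (29.1 ± 2.1), Bckdha (19.7 ± 3.1), Mccc1 (5.57 ± 0.15) and Bcat1 (0.105 ± 0.041). Of these neighbours, Bcat2 and Bckdhb overlapped between libraries, as did Bckdhb and Ivd, and the others were apart. In YAP5SA Dld was again highest (159.6 ± 5.6 TPM) and Mccc1 lowest (4.76 ± 0.51 TPM). Between them Dbt (62.7 ± 1.3), Ivd (58.5 ± 2.3), Bcat1 (57.8 ± 3.4), Bckdk (52.6 ± 4.3) and Bcat2 (49.9 ± 2.7) followed each other, each overlapping with its neighbours among these 5, while Bcat2 and the next gene, Mccc2 (43.8 ± 2.7), were apart. By this length Bcat1 had moved from the foot of the list to its middle.

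The order within the middle depends on the length used. By the longest transcript, Bcat2 (72.01 ± 3.83 TPM), Ivd (67.7 ± 2.6) and Bcat1 (52.9 ± 3.1) had higher means than Dbt (49.0 ± 1.1) in YAP5SA, but Bcat1 and Dbt overlapped between libraries, as did Bcat2 and Ivd. Which transcripts are used in these organoids was not measured. Summed over all 10 genes, the level was 447.0 to 474.1 TPM in controls and 523.9 to 541.5 TPM in YAP5SA, and without Bcat1 it was 447.0 to 473.9 and 470.8 to 482.2 TPM, with overlap.

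**Figure D4:**
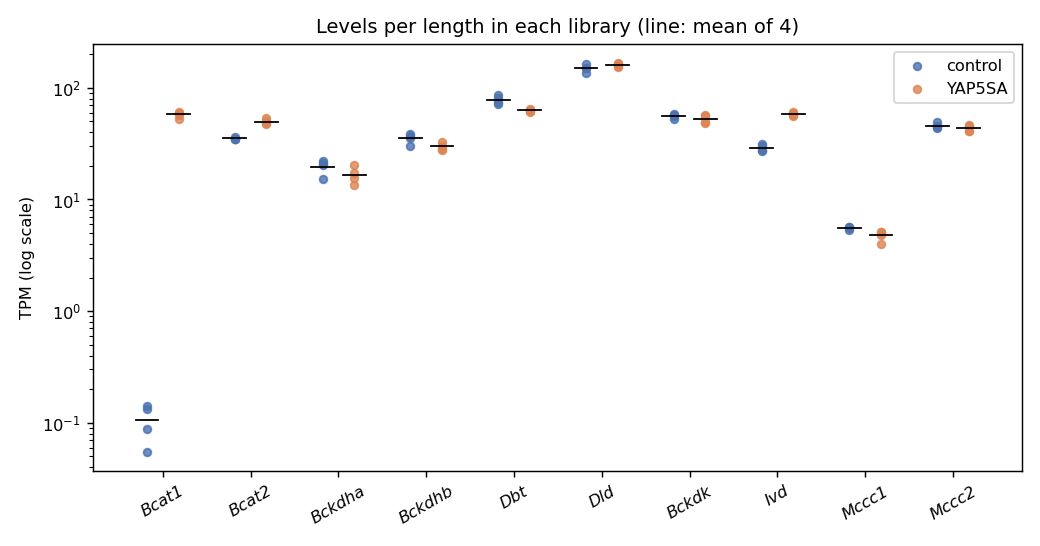
TPM (log axis, per length of merged exons) of the 10 genes in each library; lines, mean of 4. Bcat1 lies near 0.1 TPM in controls and between 53.0 and 60.6 TPM in YAP5SA, within the range of the other enzymes.

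Replicate libraries differed more than counting alone gives in most of the genes. In controls the coefficient of variation of CPM was 2.88% (Mccc1) to 15.6% (Bckdha) in the 9 genes other than Bcat1, for which counting alone gives 5.68% and 7.25%. In YAP5SA it was 2.99% (Dbt) to 16.6% (Bckdha), and 5.14% for Bcat1. The 40.0% of Bcat1 in controls compares with 43.6% from counting alone.

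The rest of the pathway was examined in a list of 18 further genes, named as breakdown enzymes rather than for how they changed, although the contrast was known. Of these, 12 passed the test, 4 higher and 8 lower (66.7%, against 49.1% of all tested genes), and none by 2-fold. The median log2 fold change was −0.155. By the rule for naming genes, Echs1 fell most, from 118.1 ± 9.0 to 67.0 ± 4.3 CPM (log2 −0.82 ± 0.07 SE, adjusted p = 8.64e-09, edgeR quasi-likelihood, Benjamini-Hochberg). It encodes the mitochondrial enoyl-CoA hydratase shared by valine, isoleucine and fatty acid breakdown. Aldh6a1, methylmalonate semialdehyde dehydrogenase at the end of the valine branch, fell from 55.8 ± 2.3 to 35.0 ± 1.6 CPM (−0.68 ± 0.07, adjusted p = 9.39e-08, edgeR). In GENCODE M21, Bbof1 on the opposite strand covers 18.6% of the Aldh6a1 exons, where reads may have been lost or misassigned. Acat1, the mitochondrial acetoacetyl-CoA thiolase of isoleucine breakdown and ketone body use, rose from 73.3 ± 6.4 to 121.3 ± 6.6 CPM (0.73 ± 0.07, adjusted p = 4.98e-08, edgeR).

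Over all tested genes 25.5% were called lower. Read by branch, a grouping made after the values were seen, all 5 genes of the valine branch were lower. Besides Echs1 and Aldh6a1 these were Acad8, isobutyryl-CoA dehydrogenase (log2 fold change −0.60 ± 0.10 SE), Hibadh, 3-hydroxyisobutyrate dehydrogenase (−0.26 ± 0.06), and Hibch, the hydrolase before it (−0.21 ± 0.08, adjusted p = 0.0285, edgeR). The call of Hibch was lost without control 1, control 2, YAP5SA 1 or YAP5SA 3 and also with scaling by library size alone or without a filter on low counts (adjusted p up to 0.0972, edgeR), so the count of 5 rests in part on a call that depends on these choices. Acad8 and Ivd, related acyl-CoA dehydrogenases of the valine and leucine branches, thus lay on opposite sides. Acadsb, the dehydrogenase of the isoleucine branch, fell by 0.23 ± 0.07 on the log2 scale (adjusted p = 0.00853, edgeR), and Hsd17b10 of that branch did not pass (−0.12, adjusted p = 0.234, edgeR).

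Auh, the hydratase that follows the carboxylase in leucine breakdown, did not pass, with a log2 fold change of −0.09 (adjusted p = 0.384, edgeR). Oxct1, which activates acetoacetate for use as fuel, rose by 0.24 ± 0.05 (354.9 ± 15.6 to 419.6 ± 6.7 CPM, adjusted p = 0.000386, edgeR). BC037032 on the opposite strand covers 12.6% of the Oxct1 exons in GENCODE M21. Among the genes of propionyl-CoA disposal, the common end of isoleucine and valine, Pcca, the biotin subunit of propionyl-CoA carboxylase, fell by 0.34 ± 0.06 and Mcee, methylmalonyl-CoA epimerase, rose by 0.46 ± 0.09 on the log2 scale. Mmut, methylmalonyl-CoA mutase, changed by −0.14 ± 0.06 (adjusted p = 0.0493, edgeR), a call lost in 6 of the 8 fits that leave out a library, with scaling by library size alone and without a filter (adjusted p up to 0.154, edgeR). Pccb, Mmaa and Mmab did not pass (−0.17, −0.20 and −0.14). Pccb passed without control 4 and Mmaa without YAP5SA 2.

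**Figure D5:**
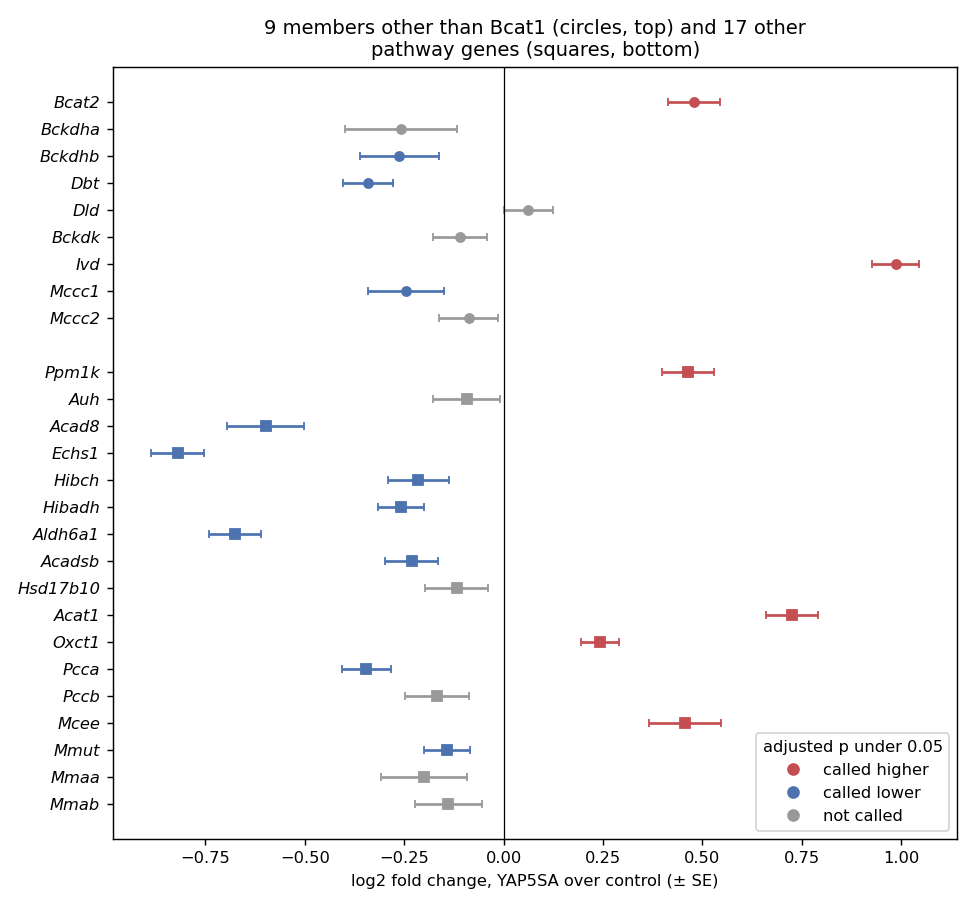
Fitted log2 fold change (YAP5SA over control, ± SE) of the 9 members other than Bcat1 (circles) and of 17 further pathway genes (squares); red and blue, adjusted p under 0.05 higher and lower; grey, not past it. Ivd (0.99) and Acat1 (0.73) lie farthest to the right and Echs1 (−0.82) farthest to the left; Bcat1 (8.97) is off this scale.

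Of 8 tested carriers that move branched-chain amino acids across membranes, 4 fell and 1 rose (62.5% called, against 49.1% of all tested genes). Slc7a5 and Slc3a2, the light and heavy chains of the main leucine exchanger of the cell surface, fell from 80.4 ± 7.4 to 51.4 ± 3.5 CPM (log2 −0.64 ± 0.07 SE, adjusted p = 8.40e-07, edgeR) and from 97.9 ± 3.0 to 73.7 ± 0.8 CPM (−0.41 ± 0.05, adjusted p = 3.21e-06, edgeR). Slc25a44, the mitochondrial branched-chain amino acid carrier, fell by 0.28 ± 0.06 on the log2 scale (57.8 ± 2.4 to 47.7 ± 2.8 CPM, adjusted p = 0.00145, edgeR), and Slc7a7 fell by 0.58 ± 0.11. The X-linked neutral and basic amino acid transporter gene Slc6a14 rose from 2.30 ± 0.93 to 5.19 ± 0.75 CPM (adjusted p = 0.000727, edgeR).

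Other genes of transamination and glutamate went both ways, with 4 of 13 tested higher and 6 lower (76.9% called, against 49.1%). Gpt2, the mitochondrial alanine transaminase, rose from 12.97 ± 2.38 to 34.6 ± 2.2 CPM (log2 1.41 ± 0.11 SE, adjusted p = 5.47e-09, edgeR). Glul, glutamine synthetase, which consumes glutamate, fell from 226.3 ± 9.1 to 65.9 ± 7.5 CPM (−1.78 ± 0.07, adjusted p = 3.81e-13, edgeR), and Kyat3, a kynurenine aminotransferase, from 9.77 ± 0.91 to 3.47 ± 0.30 CPM. Abat, which transaminates the inhibitory transmitter GABA, fell from 1.24 ± 0.44 to 0.204 ± 0.198 CPM. The glutaminase gene Gls2, low in both groups, went from 2.05 ± 0.43 to 1.03 ± 0.54 CPM, a call lost without control 1, control 3, YAP5SA 2 or YAP5SA 3 (adjusted p up to 0.0794, edgeR).

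Dld also serves the pyruvate and 2-oxoglutarate dehydrogenases and the glycine cleavage system. Of 20 further genes of these systems and of lipoic acid attachment, 5 rose and 5 fell, and the 50% called was near the 49.1% of all tested genes. In contrast to Dld, the glycine cleavage genes Amt (aminomethyltransferase) and Gldc (glycine decarboxylase) fell from 27.6 ± 2.1 to 2.91 ± 0.71 CPM (log2 −3.24 ± 0.13 SE, adjusted p = 9.54e-13, edgeR) and from 18.5 ± 2.1 to 2.41 ± 0.63 CPM (−2.92 ± 0.16, adjusted p = 3.42e-11, edgeR). Gcsh, which carries lipoic acid in that system, fell by 0.31 ± 0.06. Lipt2, an octanoyltransferase of lipoic acid synthesis, fell from 12.2 ± 3.2 to 1.003 ± 0.417 CPM (−3.58 ± 0.26, adjusted p = 6.50e-09, edgeR). Pdk2, a kinase of pyruvate dehydrogenase related to Bckdk, rose from 9.78 ± 2.65 to 24.3 ± 3.3 CPM (1.33 ± 0.17, adjusted p = 1.48e-05, edgeR). The difference between these changes and those of Dld or Bckdk was not tested.

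Of 12 other acyl-CoA dehydrogenases and electron acceptors, 3 rose and 4 fell (58.3% called, against 49.1%), and the one changed by 2-fold was Acad12 (4.10 ± 0.88 to 1.75 ± 0.14 CPM, adjusted p = 0.000141, edgeR). Of 5 other biotin enzymes and biotin-handling genes, 2 rose, 1 fell and 2 did not pass (60% called, against 49.1%). Acaca and Acacb, which encode acetyl-CoA carboxylases, rose by log2 0.42 ± 0.06 and 0.83 ± 0.20. Btd, which recycles biotin, fell by 0.38 ± 0.09 on the log2 scale. Of 10 genes of leucine sensing and mTORC1, none rose and 3 fell, namely the sestrins Sesn3 (232.6 ± 31.2 to 137.9 ± 2.8 CPM, adjusted p = 2.60e-07, edgeR) and Sesn2 (76.1 ± 11.3 to 46.4 ± 4.8 CPM), stress-induced regulators of mTORC1 of which sestrin 2 binds leucine, and the leucyl-tRNA synthetase gene Lars (131.9 ± 1.9 to 111.4 ± 5.3 CPM). The share that passed in the latter list, 30%, was below the 49.1% of all tested genes, and that difference was not tested.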

How the data were processed

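The values are read counts per gene as the authors deposited them, whole numbers with no normalization. The submitters' processing notes name HTSeq 0.6.1, HISAT2 2.0.1, cutadapt and the build mm9. Neither the gene models nor the options of the counting, strand included, are named in the sources used here. Per the labels' protocols, total RNA was sequenced as paired 150 bp reads.

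Rows without a gene name (2639 of 56691, 0.190% to 0.221% of counts) were dropped and rows sharing a symbol were summed. Of the named genes, 14058 passed edgeR's filterByExpr (minimum count 10, minimum total 15). TMM scaling and the quasi-likelihood test of edgeR 4.0.16 (R 4.3.3) were applied with genotype as the sole term, with Benjamini-Hochberg adjustment over all tested genes and calls under 0.05. "Rose" and "fell" are used of called genes. SE is the log2 fold change over the square root of F. The test was also run on simulated counts, and the outcome is not reported here. TPM use merged exons in GENCODE M21 (GRCm38), matched by symbol, with 50560 genes matched. Clopper-Pearson and pooled-ratio intervals cover counting error only and leave out the spread between libraries. They also treat each read as independent, although reads that carry no molecular identifier may be copies of 1 molecule. Intervals of log2 fold changes come from the SE, which holds the spread between libraries. For a very large change, as in Bcat1, an SE taken from F can be too small.

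The members and lists were chosen with earlier results of these data known. Genes named from other lists are called genes with at least a 2-fold change or, where a list has none, up to 3 with the largest change at an average log2 CPM of at least 3. The 5 profile neighbours and the genes within 500 kb of Bcat1 were also fixed by rule. Further pathway, carrier and glycine cleavage genes were named after their values were seen. Some genes of the lists and near Bcat1 are not reported here by name, although the counts over lists include them. Alternatives were RLE factors, library size alone, no filter, DESeq2 1.42.0, leaving out X- and Y-linked genes, a replicate block, leaving out each library, a threshold of 0.01, unsummed rows and the longest transcript as length.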

Additional observations from a re-analysis of the deposited data

How the results depend on the processing

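The 10 members kept their direction under all 16 alternatives to the fit, 160 fold changes in all. The side of the threshold changed in 17 of these, for Bckdhb, Mccc1 and Bckdha, in the fits named beside their values, at a threshold of 0.01 for Bckdhb and Mccc1, and with the replicate block for Mccc1. The replicate numbers of the titles did not pair the libraries: the deviations of same-numbered libraries from their group means correlated at −0.055, −0.079, 0.094 and 0.038, and with the replicate block 6586 genes and 5 of the 10 members were called, Mccc1 no longer among them. The block also ended the calls of Hibch and Mmut. The number of called genes was 5377 to 7611 over the alternatives (6371 to 7317 when 1 library was left out), and that of called members 4 to 6. Among the 48 other genes followed, Gm15706, which was not called, changed sign, from 0.176 to between −0.249 and 0.989 when 1 library was left out. No scaling moved the median of all genes by over 0.03 on the log2 scale. The control level of Bcat1 rests on 2 to 8 counts a library.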
